A study of Mus musculus with 12 samples.

Results

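The Polycomb repressive complex genes are 10 genes, Ezh1, Ezh2, Eed, Suz12, Jarid2, Bmi1, Rnf2, Cbx2, Cbx7 and Cbx8, taken by gene name from a count table of 32285 genes. All 10 were in the table and all 10 passed the filter on low counts, which left 13367 genes to test. They were measured by RNA sequencing of sorted bone marrow (BM) progenitors from WT mice of the C57BL6/J strain, with no treatment given in the labels. Common lymphoid progenitors negative for Ly6d (Ly6d- CLPs) and multipotent progenitors positive for Flk2 (Flk2+ MPPs) were each collected at 1 month (1MO) and 3 months (3MO) of age. Each of these 4 groups had 3 libraries, 12 in all. The study's methods give cell numbers sorted per mouse, but the labels do not tie libraries to animals. All 12 libraries held Xist, transcribed from the inactive X of females, at 1476 to 4000 CPM (counts scaled to equal effective library sizes). All 12 also held the Y-linked Ddx3y, at 53.7 to 115 CPM. Both together point to RNA of both sexes in each library, though no other sex-linked gene was examined for this. The number of mice behind a library is not known. All p-values therefore measure the spread between these libraries. Flk2+ MPPs lie upstream of Ly6d- CLPs, so the data bear on how the Polycomb genes are expressed in both progenitors and whether this differed between the ages.

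Polycomb proteins keep genes silent through 2 kinds of complex. Polycomb repressive complex 2 (PRC2) methylates lysine 27 of histone H3. Its catalytic subunit is Ezh2 or the less active Ezh1, Eed and Suz12 are required core subunits, and Jarid2 is an accessory subunit that helps bring the complex to chromatin. Polycomb repressive complex 1 (PRC1) ubiquitinates histone H2A through Rnf2 (also called Ring1b), with Bmi1 as a partner subunit. The CBX subunits carry a chromodomain, the fold by which canonical PRC1 reads the mark that PRC2 leaves. In blood formation, Bmi1 and Cbx7 are known for self-renewal of stem cells, Cbx2 and Cbx8 have been tied to differentiating progenitors, and Ezh2 and Suz12 are needed for lymphoid development.

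Of the 10 members, 4 differed between Ly6d- CLPs and Flk2+ MPPs when both ages were averaged, against 13.3% of all genes tested. Cbx7 was 2.42-fold lower in Ly6d- CLPs, whereas Cbx2, Suz12 and Jarid2 were 1.48-fold, 1.44-fold and 1.40-fold higher. None of the 10 differed between 1MO and 3MO in either cell type at an adjusted p under 0.05, where only 0.0748% of all genes did in Ly6d- CLPs and 0.0224% in Flk2+ MPPs. These contrasts come from the quasi-likelihood test of edgeR, with p-values adjusted over all 13367 genes by the Benjamini-Hochberg method.

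The CBX members are related proteins, and of their transcripts Cbx7 was lower and Cbx2 higher in Ly6d- CLPs, while Cbx8 was not called. No run of 31 bases in the transcripts of one of the 10 members occurred in another member, so reads of the CBX genes could be told apart at that length. Bmi1 is the exception among the members in another respect: 28.15% of its distinct 31-base runs also occur in other genes, 1083 of these 1108 in Gm5946. No gene named Gm5946 was among those counted, and whether this likeness touched the counts of Bmi1 was not tested. In the other 9 members at most 1.651% of the runs were shared with any other gene.

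Cbx2 and Cbx8 are neighbours on chromosome 11. In GRCm38, Cbx2 lies on the plus strand at chr11:119022962-119031270 and Cbx8 on the minus strand at chr11:119036305-119040969, with 5034 bases between them. Cbx7 is on another chromosome, at chr15:79915807-79971119 on the minus strand, where Cbx6 also lies. Of the PRC2 members, Suz12 is at chr11:79993106-80034123 on the plus strand and Jarid2 at chr13:44729474-44921643 on the plus strand.

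The sequence upstream of the RefSeq transcript start is shown for the called members that have an entry, Suz12, Jarid2 and Cbx7. These are the 250 bases before the start, written 5′ to 3′ on the gene's strand from RefSeq promoter windows on GRCm38.p6. Jarid2 has 2 windows and the first is shown. The Cbx7 and Jarid2 windows lie inside the GENCODE span of the gene, so the start they mark is not the outermost one annotated. Capitals mark matches on either strand to TTTCCCGC or TTTGGCGC, letters bound by E2F factors, and to CCAAT, the box bound by NF-Y.
Suz12 (chr11:79992856-79993105, plus strand): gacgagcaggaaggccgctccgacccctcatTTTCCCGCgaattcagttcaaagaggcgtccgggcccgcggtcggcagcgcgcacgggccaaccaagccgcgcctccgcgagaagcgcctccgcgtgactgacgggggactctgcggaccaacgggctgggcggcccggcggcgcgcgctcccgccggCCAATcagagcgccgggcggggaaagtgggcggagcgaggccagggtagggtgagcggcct
Jarid2 (chr13:44730524-44730773, plus strand): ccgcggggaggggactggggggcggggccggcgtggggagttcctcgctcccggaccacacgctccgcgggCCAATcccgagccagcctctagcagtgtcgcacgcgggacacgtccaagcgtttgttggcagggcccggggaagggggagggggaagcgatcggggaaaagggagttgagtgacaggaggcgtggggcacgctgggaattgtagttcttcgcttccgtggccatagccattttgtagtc
Cbx7 (chr15:79932647-79932896, minus strand): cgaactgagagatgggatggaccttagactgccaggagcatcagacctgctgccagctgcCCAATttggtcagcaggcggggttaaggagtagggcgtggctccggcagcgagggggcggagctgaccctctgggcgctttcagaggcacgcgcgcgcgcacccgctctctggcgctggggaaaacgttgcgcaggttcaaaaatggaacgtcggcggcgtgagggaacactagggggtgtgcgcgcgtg
Over whole windows of 300 bases (250 before and 50 after the start), 9 of the 10 members had an entry. The E2F letters were found in 2 of these 9, Suz12 and Ezh2, and in 1.63% of the 27025 promoters searched. Their first base lay 219 bases before the start in Suz12 and at base 4 after it in Ezh2. CCAAT was found in Ezh2, where it occurred 3 times, and in Eed, Suz12, Jarid2, Cbx7 and Cbx8, against 37.9% of all promoters. The GC box, GGGCGG, was found in Bmi1, where it occurred 6 times, and in Suz12, Jarid2, Rnf2, Cbx7 and Cbx8, against 35.9% of all promoters. CAGGTG, an E-box letter string of E proteins, was found in Ezh1 alone among the members, 2 times, and in 20% of all promoters. No member's window held CCGGAAGT (ETS), the NRF1 palindrome or TGTGGTT (RUNX), which occurred in 4%, 0.977% and 5.37% of promoters. The members' windows held 17 to 41 CpG dinucleotides, against a median of 7 over all promoters, with quartiles of 3 and 21. The lowest, Eed at 17, lay between these quartiles. The promoters searched were not limited to the genes tested here.

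The libraries held 8889083 to 20677785 estimated counts, with a median of 13208993. The summed level of 5 CLP markers (Il7r, Rag1, Dntt, Flt3 and Cd27) was 4147 to 5142 CPM in Ly6d- CLPs and 1637 to 2191 CPM in Flk2+ MPPs. The sum of 4 MPP markers (Kit, Cd34, Ly6a and Slamf1) was 697 to 814 CPM in Ly6d- CLPs and 1401 to 1698 CPM in Flk2+ MPPs. Il7r, Rag1 and Dntt were higher in Ly6d- CLPs (log2 differences 5.11, 4.03 and 2.38), whereas Flt3 (0.23, adjusted p = 0.10) and Cd27 (-0.29, adjusted p = 0.10) were not called. The 4 libraries numbered 3 had the highest sums of 6 erythroid markers (hemoglobin genes, Klf1 and Alas2), 81.3 to 129 CPM, against 9.66 to 27.2 CPM in the other 8. The 5 tested of 6 stroma markers summed to 213 to 599 CPM in 1MO Ly6d- CLPs, 4.44 to 7.02 CPM in 3MO Ly6d- CLPs, 11.99 to 80.8 CPM in 1MO Flk2+ MPPs and 5.24 to 14.4 CPM in 3MO Flk2+ MPPs. The 3 tested of 4 B-lineage markers (Cd79a, Vpreb1 and Ly6d) summed to 6.57 to 12.6 CPM in 1MO and 1.34 to 5.55 CPM in 3MO Ly6d- CLPs, and to 0.362 to 2.25 CPM in 1MO and 0 to 1.42 CPM in 3MO Flk2+ MPPs. The 7 myeloid markers summed to 882 to 1379 CPM in Ly6d- CLPs and 671 to 1046 CPM in Flk2+ MPPs. The 3 tested of 5 T and NK lineage markers summed to 78.4 to 138 CPM and 56.5 to 84.2 CPM, and the 2 tested of 4 megakaryocyte markers to 7.93 to 28.1 CPM and 14.8 to 35.0 CPM. The part of these other cell types in the results was not tested, except by leaving out the libraries numbered 3. In such bulk samples, fewer cells of a type and less RNA per cell cannot be told apart.

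Among the PRC2 members, the catalytic subunits are given first. Per kilobase of exon, Ezh2 had the highest level of the 10 members in all 4 groups, from 73.4 ± 22.5 CPM per kb in 3MO Flk2+ MPPs to 99.1 ± 17.7 CPM per kb in 3MO Ly6d- CLPs (SD, n = 3). The rank rests on the exon lengths used, since in CPM the mean of Suz12 was above that of Ezh2 in all 4 groups. In CPM, Ezh2 was at 291, 214 and 204 in 1MO Ly6d- CLPs, at 296, 222 and 316 in 3MO Ly6d- CLPs, at 222, 236 and 179 in 1MO Flk2+ MPPs and at 277, 159 and 180 in 3MO Flk2+ MPPs. The cell types overlapped, and the log2 difference of Ly6d- CLPs minus Flk2+ MPPs was 0.29 (95% confidence interval -0.04 to 0.63, adjusted p = 0.27). Ezh1, the other catalytic subunit, was at 81.0, 48.6 and 60.03 CPM in 1MO Ly6d- CLPs, at 94.1, 71.2 and 83.8 CPM in 3MO Ly6d- CLPs, at 127, 93.3 and 78.0 CPM in 1MO Flk2+ MPPs and at 121, 88.0 and 78.8 CPM in 3MO Flk2+ MPPs. Its 3 highest levels were in Flk2+ MPPs or in 3MO Ly6d- CLPs and its 3 lowest in Ly6d- CLPs, but the cell types overlapped. The log2 difference of Ezh1 was -0.43 (95% confidence interval -0.79 to -0.07) and missed the threshold at an adjusted p of 0.12. With a gene length index of each library as a covariate, described below for Cbx8, it passed (-0.47, adjusted p = 0.012), as it did with a replicate block by number (-0.42, adjusted p = 0.026) or by age and number (-0.42, adjusted p = 0.043).

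The balance of Ezh1 to Ezh2 within a library separated the cell types. The ratio of Ezh1 CPM to Ezh2 CPM was 0.227 to 0.321 in the 6 libraries of Ly6d- CLPs and 0.395 to 0.570 in the 6 of Flk2+ MPPs, with no overlap. At 1MO it was 0.267 ± 0.0350 in Ly6d- CLPs and 0.467 ± 0.0914 in Flk2+ MPPs, and at 3MO it was 0.302 ± 0.0314 and 0.476 ± 0.0659 (SD, n = 3). The ratio is given as a description without a test, and how often ratios of other gene pairs separate the cell types was not tested.

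Suz12, the core subunit that stabilises PRC2, was at 424, 277 and 352 CPM in 1MO Ly6d- CLPs, at 335, 276 and 387 CPM in 3MO Ly6d- CLPs, at 263, 248 and 205 CPM in 1MO Flk2+ MPPs and at 231, 239 and 237 CPM in 3MO Flk2+ MPPs. All 6 libraries of Ly6d- CLPs lay above all 6 of Flk2+ MPPs, by a narrow margin between 276 and 263 CPM. The log2 difference was 0.53 (SE 0.13, adjusted p = 0.010). Jarid2, the accessory subunit, was at 201, 144 and 184 CPM in 1MO Ly6d- CLPs, at 148, 143 and 168 CPM in 3MO Ly6d- CLPs, at 111, 133 and 117 CPM in 1MO Flk2+ MPPs and at 135, 106 and 103 CPM in 3MO Flk2+ MPPs. Its cell types did not overlap either, and its log2 difference was 0.49 (SE 0.12, adjusted p = 0.014). Eed, which binds the methylated histone tail, stayed between 58.8 and 90.9 CPM in Ly6d- CLPs and between 66.1 and 81.5 CPM in Flk2+ MPPs. Its log2 difference of -0.04 had a 95% confidence interval of -0.31 to 0.24, whose upper end lies below the Suz12 difference. Without the 4 libraries numbered 3, the differences of Suz12 (0.42, adjusted p = 0.16) and Jarid2 (0.39, adjusted p = 0.23) no longer passed the threshold.

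**Figure D1:**
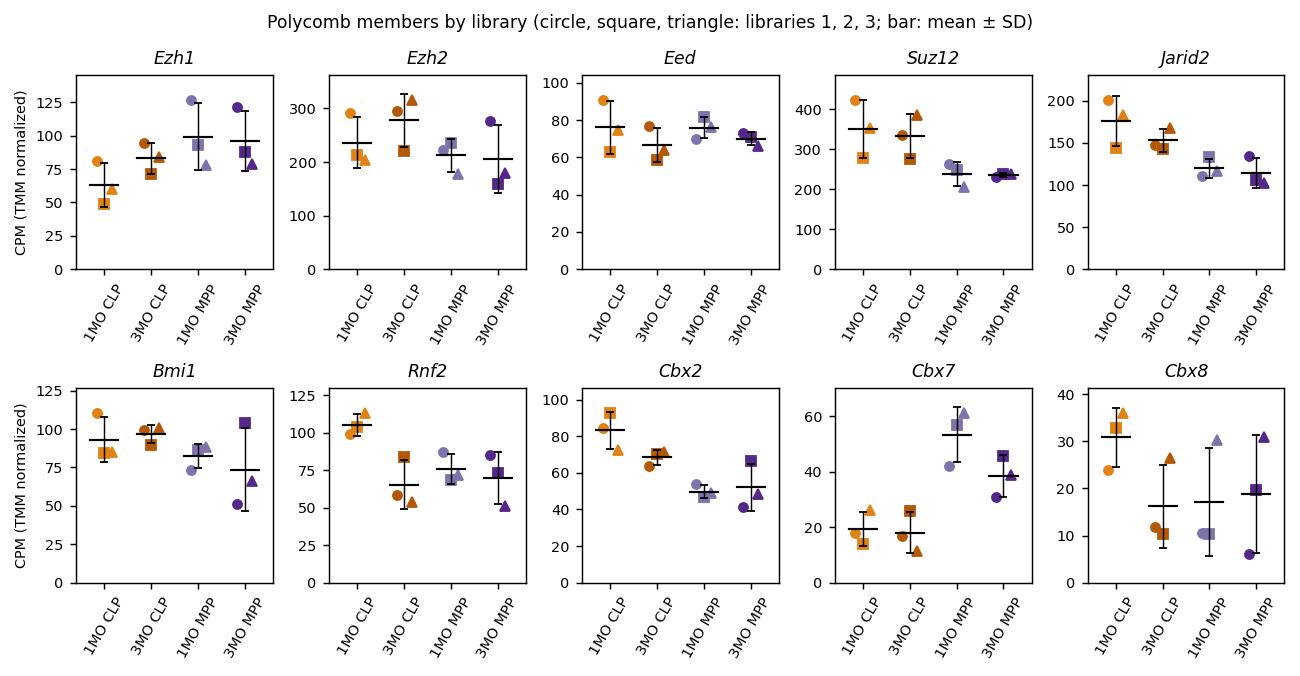
Level of each Polycomb member in CPM after TMM normalization (y axis, linear, from 0) in the 12 libraries, by group (x axis), where circles, squares and triangles are the libraries numbered 1, 2 and 3 and the bars are the mean ± SD of 3 libraries. Suz12 and Jarid2 lie higher in all Ly6d- CLP libraries and Cbx7 higher in all Flk2+ MPP libraries, from 30.9 to 61.2 CPM against 11.5 to 26.2 CPM.

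Among the PRC1 members, the core subunits Rnf2 and Bmi1 were not called between the progenitors. Rnf2, the ubiquitin ligase, was at 98.9, 104 and 113 CPM in 1MO Ly6d- CLPs, at 58.3, 83.8 and 53.7 CPM in 3MO Ly6d- CLPs, at 87.2, 68.7 and 71.5 CPM in 1MO Flk2+ MPPs and at 85.1, 73.0 and 51.2 CPM in 3MO Flk2+ MPPs. The 3 libraries of 1MO Ly6d- CLPs were above the other 9. Averaged over age, the log2 difference of Rnf2 between the cell types was 0.19 (95% confidence interval -0.13 to 0.52, adjusted p = 0.52). Bmi1, which partners Rnf2, was at 84.1 to 110 CPM in Ly6d- CLPs and at 51.1 to 104 CPM in Flk2+ MPPs, and these ranges overlapped. Its log2 difference was 0.28 (adjusted p = 0.30).

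The largest log2 difference among the members was that of Cbx7. It was at 18.1, 14.1 and 26.2 CPM in 1MO Ly6d- CLPs, at 16.7, 26.0 and 11.5 CPM in 3MO Ly6d- CLPs, at 42.2, 57.0 and 61.2 CPM in 1MO Flk2+ MPPs and at 30.9, 45.8 and 39.0 CPM in 3MO Flk2+ MPPs. Every Ly6d- CLP library was below every Flk2+ MPP library. The log2 difference was -1.27 (SE 0.23, 95% confidence interval -1.75 to -0.79, adjusted p = 0.0011). It passed the threshold under all 20 alternatives tried, with a log2 difference between -1.46 and -1.15.

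Cbx2 moved the other way. It was at 84.5, 92.7 and 72.8 CPM in 1MO Ly6d- CLPs, at 63.8, 70.3 and 71.6 CPM in 3MO Ly6d- CLPs, at 53.8, 46.6 and 48.9 CPM in 1MO Flk2+ MPPs and at 41.6, 66.5 and 48.7 CPM in 3MO Flk2+ MPPs. The cell types did not overlap at 1MO, while at 3MO the second library of Flk2+ MPPs lay above the lowest of Ly6d- CLPs. The log2 difference was 0.57 (SE 0.14, adjusted p = 0.013), and without the libraries numbered 3 it was 0.57 with an adjusted p of 0.13.

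Cbx8 had the largest relative spread between replicates of any member in all groups except 1MO Ly6d- CLPs. It was at 23.8, 32.8 and 36.0 CPM in 1MO Ly6d- CLPs, at 11.9, 10.4 and 26.4 CPM in 3MO Ly6d- CLPs, at 10.6, 10.4 and 30.3 CPM in 1MO Flk2+ MPPs and at 6.03, 19.6 and 30.97 CPM in 3MO Flk2+ MPPs. In each of the 4 groups the library numbered 3 was the highest. The log2 difference between the cell types was 0.31, with a wide 95% confidence interval of -0.49 to 1.11 (adjusted p = 0.69). The level of Cbx8 moved with a length index of the library, which is the log2 level of 2086 genes with at least 6000 exonic bases minus that of 1912 genes with at most 1500. The index ran from -0.639 to 0.573, and the 4 libraries with the lowest index, -0.639 to -0.267, held Cbx8 at 30.3 to 36.0 CPM, against 6.03 to 26.4 CPM in the other 8. With the index as a covariate the log2 difference of Cbx8 was 0.67 (adjusted p = 0.084).

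**Figure D2:**
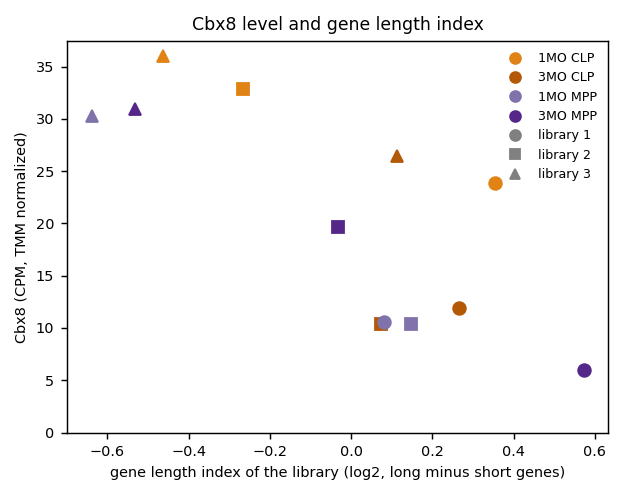
Cbx8 level in CPM (y axis) against the gene length index of the library on the log2 scale (x axis, long minus short genes), 1 point for each of the 12 libraries, with color for the group and shape for the library number. Libraries with a low index, among them 3 of the 4 numbered 3, have the highest Cbx8, 30.3 to 36.0 CPM.

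Per kilobase, 4 CBX genes of PRC1 differed in composition between the progenitors. The sum of Cbx2, Cbx6, Cbx7 and Cbx8 in CPM per kb was set to 100% in each library. Cbx7 made up 7.57 ± 2.41% of it in Ly6d- CLPs and 16.2 ± 2.7% in Flk2+ MPPs (SD, n = 6), with ranges of 5.205 to 10.8% and 13.6 to 19.6% that did not overlap. Cbx2 made up 27.4 ± 2.94% and 16.3 ± 2.16%, and its ranges of 23.6 to 31.4% and 13.99 to 19.3% did not overlap either. Cbx6 was the most abundant of the 4 in both, at 55.9 ± 6.14% in Ly6d- CLPs and 61.6 ± 3.28% in Flk2+ MPPs. Cbx8 made up 9.10 ± 4.12% and 5.89 ± 3.23%, and both Cbx6 and Cbx8 overlapped between the cell types. The ratio of Cbx7 CPM to the sum of Cbx2 and Cbx8 CPM was 0.112 to 0.322 in Ly6d- CLPs and 0.489 to 0.998 in Flk2+ MPPs. Shares and ratios rest on the same counts as the tests above and were not tested again.

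**Figure D3:**
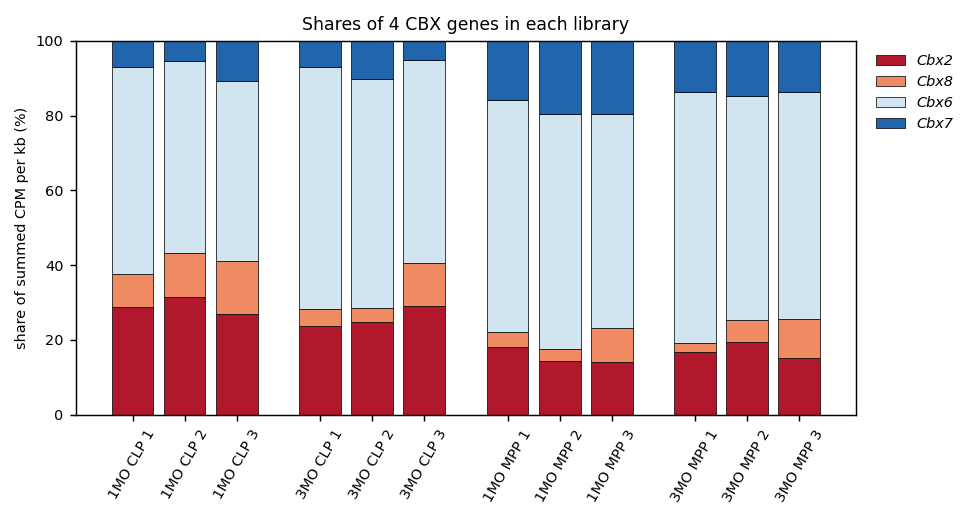
Share of each of 4 CBX genes in their summed CPM per kb (y axis, %) in the 12 libraries (x axis), as stacked bars that reach 100%. The Cbx7 segment at the top is at most 10.8% in Ly6d- CLPs and at least 13.6% in Flk2+ MPPs, and the Cbx2 segment at the bottom is larger in all Ly6d- CLP libraries.

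**Figure D4:**
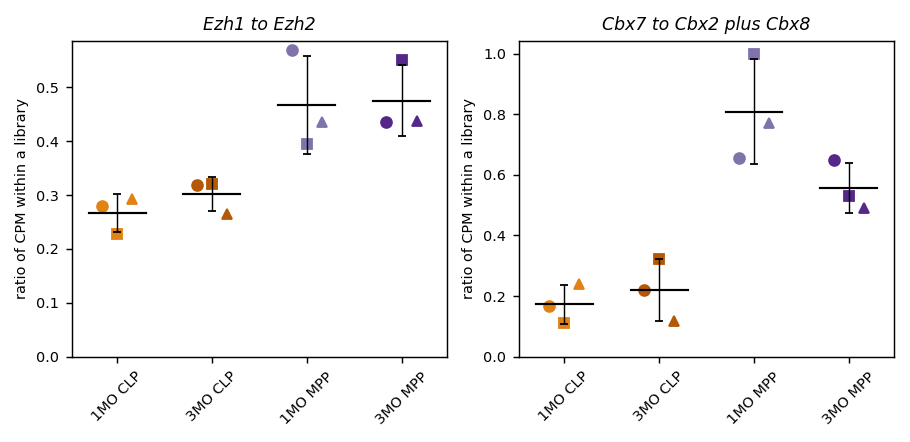
Ratio of Ezh1 to Ezh2 CPM (left y axis) and of Cbx7 to the sum of Cbx2 and Cbx8 CPM (right y axis) within each library, by group (x axis), with points for libraries and bars for the mean ± SD of 3. In both panels the Ly6d- CLP libraries, at most 0.321 and 0.322, lie under all Flk2+ MPP libraries, at least 0.395 and 0.489.

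The order of the members by CPM per kb was similar in the 4 groups at the top and differed at the bottom. Ezh2 and Suz12 took the top 2 places and Eed the next in every group. Ezh2 and Suz12 did not differ beyond their spread in 1MO Ly6d- CLPs, at 84.3 ± 16.9 and 80.3 ± 16.7 CPM per kb (SD, n = 3). Rnf2, Jarid2 and Bmi1 followed at 18.6 to 31.4 CPM per kb in group means. Cbx7 was last or next to last in Ly6d- CLPs, at 5.72 ± 1.82 and 5.31 ± 2.16 CPM per kb at 1MO and 3MO. In 1MO Flk2+ MPPs it reached 15.7 ± 2.93 CPM per kb, close to Ezh1 at 16.3 ± 4.10 and above Cbx2 at 13.1 ± 0.957, and in 3MO Flk2+ MPPs it was at 11.3 ± 2.20.

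Over the 10 members, 7 had a positive log2 difference of Ly6d- CLPs minus Flk2+ MPPs, with a median of 0.29 against -0.03 over all 13367 genes. The 3 that were higher compare with 5.95% of all genes higher, and the 1 that was lower with 7.30% lower. The libraries of the cell types did not overlap for 3 members, Suz12, Jarid2 and Cbx7, and for 8.79% of all genes. In the same contrast 11 of 16 proliferation genes were higher in Ly6d- CLPs and 0 lower, with a median of 0.39, and the part of proliferation in the Polycomb results was not tested. At 1MO alone, 2 members were called, against 5.38% of all genes, Cbx7 (-1.46, adjusted p = 0.012) and Cbx2 (0.74, adjusted p = 0.039). DESeq2 called the same 2 and also Suz12 and Jarid2, against 8.85% of all genes. Leaving out the second 1MO Ly6d- CLP library or the third 1MO Flk2+ MPP library ended both calls, and leaving out either other library of these groups or the third 3MO Ly6d- CLP library ended that of Cbx2. At 3MO alone 0 members were called by edgeR, against 6.07% of all genes, although 3 had an unadjusted p under 0.05 (19.0% of all genes) and DESeq2 called Cbx7 (9.65% of all genes). Cbx7 was nearest to the threshold there (-1.09, adjusted p = 0.056). It passed with a replicate block by number (-1.09, adjusted p = 0.046) or by age and number (-1.15, adjusted p = 0.026), and also without the third 1MO Ly6d- CLP library, the second 3MO Ly6d- CLP library or the first 3MO Flk2+ MPP library. The differences at both ages come from separate libraries. The test of whether they differed with age called 0 members, and for Cbx7 it gave 0.37 (95% confidence interval -0.58 to 1.31).

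**Figure D5:**
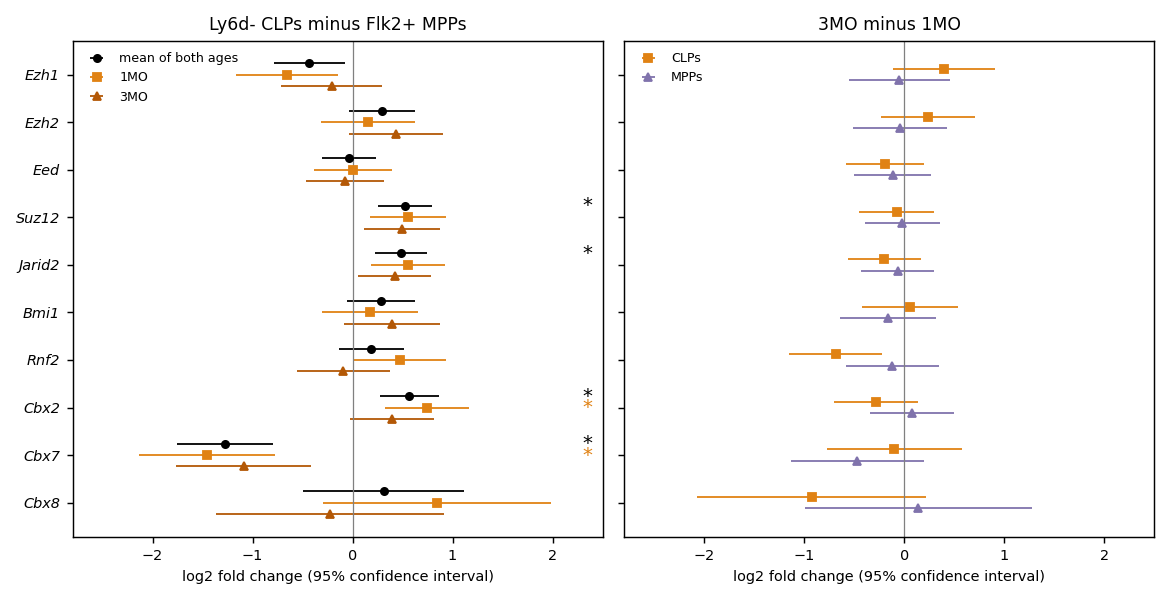
Log2 fold change of each member (x axis) with its 95% confidence interval from edgeR, for Ly6d- CLPs minus Flk2+ MPPs (left, mean of both ages, 1MO and 3MO) and for 3MO minus 1MO (right, in each cell type). Asterisks mark an adjusted p under 0.05, which Suz12, Jarid2, Cbx2 and Cbx7 reach on the left for the mean of both ages, Cbx2 and Cbx7 at 1MO, and none on the right.

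With age, 0 of the 10 members were called in Ly6d- CLPs, where 0.0748% of all genes were, and 0 in Flk2+ MPPs, where 0.0224% were. Averaged over both cell types 0 were called, against 0.127%. DESeq2 also called 0 members for each of these contrasts, against 0.475% of all genes in Ly6d- CLPs, 0.265% in Flk2+ MPPs and 0.702% in the average. At an unadjusted p under 0.05 there was 1 member in Ly6d- CLPs, 0 in Flk2+ MPPs and 1 in the average, against 5.90%, 3.48% and 5.97% of all genes. That member was Rnf2, with a log2 difference of 3MO minus 1MO of -0.69 in Ly6d- CLPs (95% confidence interval -1.15 to -0.22, adjusted p = 0.64 in edgeR). Its 3 libraries of 3MO Ly6d- CLPs, at 53.7 to 83.8 CPM, lay under all 3 of 1MO, at 98.9 to 113 CPM. Cbx2 was the other member without overlap in Ly6d- CLPs, at 63.8 to 71.6 CPM against 72.8 to 92.7 CPM, and these 2 of 10 compare with 10.6% of all genes. In Flk2+ MPPs 0 members were without overlap, against 8.57% of all genes. The 1MO Ly6d- CLP libraries that were high in Rnf2 and Cbx2 were also those with the highest stroma marker sums given above, and the part of stroma in these values was not tested.

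The confidence intervals bound the size of an age difference. In Ly6d- CLPs the interval was -0.46 to 0.30 for Suz12, -0.57 to 0.16 for Jarid2 and -0.24 to 0.70 for Ezh2, on the log2 scale. In Flk2+ MPPs it was -0.40 to 0.36 for Suz12, -0.44 to 0.30 for Jarid2 and -0.52 to 0.42 for Ezh2. A 2-fold difference lay outside each of these 6 intervals. For Cbx7 the intervals were wider, -0.78 to 0.57 in Ly6d- CLPs and -1.14 to 0.20 in Flk2+ MPPs, and for Cbx8 they were -2.07 to 0.21 and -0.996 to 1.28. The test of a different age effect in the 2 cell types called 0 members and 0 genes in all by edgeR, and 3.21% of all genes had an unadjusted p under 0.05.

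The other subunits of PRC2 were not called in the contrast of Ly6d- CLPs and Flk2+ MPPs. Of 8 listed, 7 were tested, 0 were higher and 0 lower, against 5.95% and 7.30% of all genes. Their median log2 difference was 0.01, against -0.03 over all genes. The smallest p-values were those of Rbbp4 (0.23, adjusted p = 0.33), a histone-binding core subunit, of Epop (0.36, adjusted p = 0.33) and of Phf1 (-0.36, adjusted p = 0.41), both accessory subunits. With age, in the average of both cell types, 0 of 7 were called, where only 0.127% of all genes were. The smallest p-values were those of Phf19 (-0.21) and Rbbp4 (-0.13), each with an adjusted p of 0.91.

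Of 19 further PRC1 subunits, all tested, 1 was higher and 1 lower in Ly6d- CLPs, against 5.95% and 7.30% of all genes, with a median log2 difference of -0.13. Auts2, a subunit of a variant PRC1, was at 32.9 to 76.3 CPM in Ly6d- CLPs and 10.8 to 53.5 CPM in Flk2+ MPPs (log2 difference 1.24, SE 0.36, adjusted p = 0.032). Scml2, a Polycomb protein of the sex comb on midleg family, was at 4.94 to 18.0 CPM in Ly6d- CLPs and 12.3 to 26.3 CPM in Flk2+ MPPs (-1.11, SE 0.31, adjusted p = 0.025). Both overlapped between the cell types. The next smallest p was that of Cbx6, at 199 to 267 CPM in Ly6d- CLPs and 255 to 314 CPM in Flk2+ MPPs (-0.32, adjusted p = 0.072). With age, in the average of both cell types, 0 of 19 were called, where only 0.127% of all genes were. The smallest p-values were those of Pcgf5 (0.20, adjusted p = 0.86), a variant partner of Rnf2, and Scml2 (0.52, adjusted p = 0.87).

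Proteins that oppose Polycomb silencing were not called either. Of 11 listed, 10 were tested, with 0 higher and 0 lower, against 5.95% and 7.30% of all genes. Their median log2 difference was 0.06, and Asxl3 had 0 counts in every library. Asxl1, a partner of the H2A deubiquitinase Bap1, was nearest to the threshold (0.34, adjusted p = 0.068), followed by Kdm6b, an H3 lysine 27 demethylase (-0.31, adjusted p = 0.27), and Men1, a subunit of trithorax complexes (0.22, adjusted p = 0.38). With age, in the average of both cell types, 0 of 10 were called, where only 0.127% of all genes were. The smallest p-values were those of Men1 (-0.25, adjusted p = 0.86) and Kmt2d, an H3 lysine 4 methyltransferase (0.25, adjusted p = 0.90).

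Of 14 genes known as Polycomb targets, 8 were tested, of which 3 were higher and 1 lower in Ly6d- CLPs, against 5.95% and 7.30% of all genes, with a median log2 difference of 0.23. Cdkn2a and Cdkn2b, the cell cycle inhibitors held silent by Bmi1 in stem cells, had 0 counts in all 12 libraries, as had Gata4, Gata6 and Sox7. A count of 0 says only that their transcripts were not detectable at this depth. Ebf1, a transcription factor of the B lineage, was at 20.8 to 76.3 CPM in Ly6d- CLPs and 0.181 to 2.85 CPM in Flk2+ MPPs (adjusted p = 5.2e-08). Pax5, the B-lineage commitment factor, was at 0.498 to 28.9 CPM in Ly6d- CLPs, 0 to 1.87 CPM in 1MO Flk2+ MPPs and 0 in all 3MO Flk2+ MPPs (adjusted p = 0.0017). Cdkn1a, a cell cycle inhibitor, was at 29.6 to 46.4 CPM and 6.99 to 13.8 CPM (log2 difference 2.06, SE 0.20, adjusted p = 4.6e-06). The gene that was lower, Cdkn1c, another inhibitor, was at 0.202 to 2.03 CPM and 1.37 to 7.65 CPM (-2.01, adjusted p = 0.048), and it is named after its values were seen. With age, in the average of both cell types, 0 of 8 were called, where only 0.127% of all genes were. Pax5 had an adjusted p of 0.44 and Cdkn2c, an inhibitor of Cdk4 and Cdk6, a log2 difference of 0.43 (adjusted p = 0.83).

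In fetal and neonatal blood formation the RNA-binding protein Lin28b blocks let-7 microRNAs, and Cbx2 is known as a let-7 target. Of 6 genes listed for this axis, 5 were tested. Of these, 2 fell with age in the average of both cell types, where 0.127% of all genes were called. Between the cell types 2 were higher in Ly6d- CLPs, against 5.95% of all genes. The list was drawn up with earlier results of these data known, so these counts are not a test of the axis. Igf2bp3, an RNA-binding protein, was at 38.9 to 67.7 CPM in 1MO and 1.21 to 4.20 CPM in 3MO Ly6d- CLPs, and at 18.4 to 30.7 CPM in 1MO and 0 to 0.288 CPM in 3MO Flk2+ MPPs (adjusted p = 6.2e-06 for age and 5e-04 for cell type). Hmga2, a chromatin protein and let-7 target, was at 108 to 196 CPM in 1MO and 41.7 to 58.0 CPM in 3MO Ly6d- CLPs, and at 121 to 172 CPM and 33.2 to 45.3 CPM in Flk2+ MPPs. Its log2 difference of 3MO minus 1MO was -1.75 (SE 0.17, adjusted p = 9e-05), and between the cell types it was 0.24 (adjusted p = 0.41). Arid3a, a DNA-binding protein of fetal B lymphopoiesis, was at 47.5 to 81.0 CPM in Ly6d- CLPs and 30.5 to 42.5 CPM in Flk2+ MPPs (0.86, SE 0.14, adjusted p = 0.00062). Beside these, Cbx2 had log2 differences of 3MO minus 1MO of -0.28 in Ly6d- CLPs (95% confidence interval -0.70 to 0.14) and 0.07 in Flk2+ MPPs (-0.35 to 0.49).

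The genes whose levels followed the members most closely over the 12 libraries are given as a description. For Cbx7 they were Gem, a small GTPase, with Pearson r = 0.941, Procr, a surface protein of blood stem cells, with r = 0.939, and C77080 with r = 0.937, in log2 CPM. All 3 were low in Ly6d- CLPs and high in Flk2+ MPPs, Gem at 5.22 to 15.5 CPM against 19.1 to 53.2 CPM and Procr at 0 to 0.900 CPM against 10.04 to 19.9 CPM. Within the 6 libraries of a cell type r was 0.553 to 0.925 for these 3 genes. For Suz12 the closest were Zfp626, a zinc finger gene, with r = 0.973, Myb, a transcription factor of progenitors, with r = 0.925, and Wdr76 with r = 0.919. Myb was at 791 to 1130 CPM in Ly6d- CLPs and 594 to 729 CPM in Flk2+ MPPs. The 12 points share their cell type, depth and length index, and genes were ranked by r, so these values are not tests.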

How the data were processed

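RNA of sorted Ly6d- CLPs and Flk2+ MPPs was sequenced in 3 libraries for each cell type and age, 12 in all, grouped by their titles. Per the labels and the study's methods, the reads passed FastQC, UMI-tools, Trim Galore, SortMeRNA, STAR and Salmon, with mm10 as the build in the submitters' processing notes. The authors deposited estimated counts, whole-series in 1 table, which Salmon's workflow adjusts for transcript length but leaves at each library's own depth, so a gene's value depends on Salmon's split of shared reads. Each of the 12 columns carries 1 sample's description, and 0 columns were left out.

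Estimated counts were rounded and analysed with R 4.3.3, edgeR 4.0.16, limma 3.58.1 and DESeq2 1.42.0. Genes passing filterByExpr were TMM normalized and tested with edgeR's quasi-likelihood test in 1 fit of 4 groups, with Benjamini-Hochberg adjustment over all 13367 genes and a threshold of 0.05. CPM are TMM normalized. CPM per kb divides by the union of exons in GENCODE M21 on GRCm38. Correlations used log2 CPM with a prior count of 2. Sequences, lengths and 31-base runs were handled with Python 3.11.15 and pandas 2.3.3. The fit was tested on simulated data.

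The members and lists were chosen with earlier results of these data known. Genes named are the 10 members, in each list the 3 with the smallest p for cell type and the 2 for age, and the 3 with the highest r with each of the 2 members of smallest p, which were Cbx7 and Suz12. Any other gene named, such as Cdkn1c, was chosen after its values were seen. Some listed genes and 1 sequence are not reported here, and counts and sums of their lists are given without them. Alternatives were DESeq2's size factors and Wald test, no filter, a minimum of 10 counts in all libraries, a block for the replicates by number or by age and number, only the 6 libraries compared, each library left out in turn and, added after seeing the data, leaving out the libraries numbered 3 and the length index as a covariate. Total estimated counts were 8889083 to 20677785 per library. Confidence intervals (95%) come from the fitted spread between libraries.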

Additional observations from a re-analysis of the deposited data

How the results depend on the processing

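For the mean of both ages, leaving out each library in turn left 4 to 5 members called, always with Suz12, Jarid2, Cbx2 and Cbx7 among them, while 1377 to 1782 of all genes were called. Ezh1 was also called without the first 1MO Ly6d- CLP library and Bmi1 without the second 3MO Flk2+ MPP library. At 1MO these fits called 0 to 2 members and 460 to 887 genes, and at 3MO 0 to 1 members and 553 to 881 genes. For age they called 0 members throughout, with 6 to 10 genes in Ly6d- CLPs, 3 to 5 in Flk2+ MPPs, 12 to 23 in the average, and 0 to 1 for the interaction. Where a group was left with 2 libraries, the spread was pooled over all 4 groups.

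Without the 4 libraries numbered 3, 1 member (Cbx7) was called for the mean of both ages and 0 at 1MO, and all genes called were 865 for the mean, 258 at 1MO, 290 at 3MO, 6 for age in the average, 2 in Ly6d- CLPs, 1 in Flk2+ MPPs and 1 for the interaction. That fit has fewer libraries, and the cause was not tested further. With the length index as a covariate, 5 members were called at 1MO and 1 at 3MO, among 1113 and 1236 genes. DESeq2 called 4 members at 1MO and 1 at 3MO, among 1230 and 1408 genes, and 100, 66, 35 and 7 genes for age in the average, in Ly6d- CLPs, in Flk2+ MPPs and for the interaction. With no filter 1 member was called at 3MO, among 1061 genes, and 78, 46, 26 and 6 genes for those 4 contrasts. The strict filter called 4 genes for age in Ly6d- CLPs and 1 in Flk2+ MPPs, and the fits of only 6 libraries 435 at 3MO and 4 for age in Ly6d- CLPs.

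The study describes its profiled Ly6d- CLPs as coming from 3 independent experiments, and the sample indexes in the column names run by library number across the groups. No source used here states that equal numbers share an experiment or a mouse. The deviations from the group means of equally numbered libraries correlated at -0.135 to 0.422, over 0.1 in 11 of 18 pairs. Between the cell types at 3MO all 3 pairs were over 0.1, at 0.103 to 0.186. In all, 9 of 12 libraries correlated best with their own number. With a replicate block by number, 5 members were called for the mean of both ages (Ezh1 added), 3 at 1MO and 1 at 3MO (Cbx7), among 1979, 915 and 1007 genes. With a replicate block by age and number, 5, 2 and 1 members were called, among 1842, 836 and 921 genes. The block by number called 0 members for age. The block by age and number takes up the age difference and gives no value for age. Neither block ended a call for a member between the cell types.

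No value for a member changed sign where it was called. Among the values for single members under the alternatives, 14 lost a call and 19 gained one. The confidence intervals of Cbx7 and Cbx8, the members with the lowest CPM, are the widest.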
